A study of Canis lupus familiaris with 186 samples.

Results

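The T-cell receptor complex and its coreceptors were followed in primary tumors of 186 dogs with appendicular osteosarcoma, a bone cancer of the limb. The genes are CD3E, CD3D, CD3G, CD2, CD5, CD4, CD8A, CD8B, LCK and ZAP70. All 10 were found in the deposited table of 37952 genes by symbol, with 1 row each. The dogs came from the trials COTC021 (n = 93) and COTC022 (n = 93) of the DOG2 dataset, and each dog gave 1 tumor. All tumors were sampled before treatment from dogs without macroscopic metastasis, so the trial is the only group that the labels give, and neither trial is an untreated control of the other. The RNA came from whole tumor tissue, in which fewer T cells and less RNA per T cell cannot be told apart.

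A T cell recognizes antigen through a receptor whose binding chains cannot signal alone. CD3E, CD3D and CD3G encode the CD3 chains that carry the signal into the cell. The coreceptors CD4 and CD8 bind the molecules that present antigen and bring the kinase LCK to the CD3 chains, which then recruit the kinase ZAP70. CD2 is an adhesion receptor of T cells and NK cells, and CD5 dampens signaling through the receptor. CD8 is made of an alpha chain (CD8A) and a beta chain (CD8B), and the beta chain needs the alpha chain to reach the cell surface. In dogs, CD4 is carried not only by helper T cells but also by neutrophils.

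In the canine assembly GSD_1.0, which the study also used, CD3G (chr5:15403667-15416467), CD3D (chr5:15417998-15421934) and CD3E (chr5:15428916-15440314) are neighbors. CD8B (chr17:38626364-38641576) and CD8A (chr17:38679136-38683623) also lie near each other, with CD2 (chr17:54699355-54711821) on the same chromosome. LCK lies at chr2:68338870-68362999, ZAP70 at chr10:45944828-45975965, CD5 at chr18:55824104-55844496 and CD4 at chr27:7845022-7891631. All are annotated as protein coding, and values are per whole gene. The annotation of CD8A overlaps the lncRNA LOC111090626, that of CD4 overlaps LOC102153812 and the lncRNA LOC111092740, and that of ZAP70 overlaps the end of C10H2orf92. How the counting treated strand is not stated, so reads in the overlaps are uncertain. The genes over CD8A and CD4 held few reads, with medians of 0 counts and highest counts of 12 for LOC111090626, 2 for LOC102153812 and 3 for LOC111092740. C10H2orf92 had a median of 4 counts and a highest count of 20, with 10 counts or more in 34 dogs, so low values of ZAP70 are the more uncertain.

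Library totals lay between 6587634 and 27420867 counts. In 50 libraries the column name carried a doubled separator ("__"), and these were deeper, with a median total of 19440456 against 9851682 in the other 136. Totals ran from 15803912 to 23214356 in the 50 and from 6587634 to 27420867 in the others. The 50 are called the deeper libraries below, although the deepest library is among the others. What the separator stands for is not given. The deeper libraries hold 18 dogs from COTC021 and 32 from COTC022, so results were also computed within each group of libraries. The osteoblast markers ALPL and IBSP had medians of 695 and 722 CPM (counts scaled by the library total). A tumor that stood apart was COTC022 replicate 64, which had the highest CPM of all 10 genes. In this tumor ALPL was at 0.696 CPM, the lowest of all 186 dogs, and IBSP at 0.253 CPM (rank 184). Of the macrophage markers, CD163 was at 734.6 CPM (rank 2), AIF1 ranked 3, MSR1 ranked 6 and CSF1R ranked 10. CD68, at 255.4 CPM against a median of 213, ranked 81. RUNX2, another osteoblast gene, was at 126.4 CPM there (rank 148). What these values say of the sampled tissue was not tested, and results are given with and without this tumor.

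The CD3 chains were low in most tumors and high in a few. CD3E ranged from 0.122 to 250.4 CPM in COTC021, with a median of 2.88. In COTC022 it ranged from 0.212 to 880.4 CPM, with a median of 2.92. CD3G ran from 0 to 93.0 CPM in COTC021, with a median of 1.63, and from 0 to 287.6 CPM in COTC022, with a median of 1.16. CD3D ran from 0 to 84.0 CPM with a median of 0.732 in COTC021, and from 0 to 201.7 CPM with a median of 0.649 in COTC022. The trials overlapped over nearly their whole ranges for each chain. COTC022 replicate 64 alone held 29.5% of the CPM of CD3E summed over all dogs, 24.3% of that of CD3D and 20.7% of that of CD3G. CD3E was at 304-fold its median in this tumor, against 86.9-fold the median of the remaining dogs in the next highest tumor.

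Of the adhesion and regulatory receptors, CD2 had CPM from 1.3 to 156.7 in COTC021, with a median of 7.81. In COTC022, CD2 ranged from 0.628 to 747.2 CPM, with a median of 7.71. CD5 ranged from 0 to 40.7 CPM in COTC021, with a median of 0.622, and from 0 to 227.4 CPM in COTC022, with a median of 0.668. The medians of both genes lay close together in the trials, and the highest tumor was again COTC022 replicate 64.

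Among the coreceptors, CD4 ranged from 0 to 64.4 CPM in COTC021, with a median of 3.53, and from 0.0538 to 326.8 CPM in COTC022, with a median of 3.49. CD8B ranged from 0.0957 to 103.5 CPM in COTC021, with a median of 3.11, and from 0.329 to 179.6 CPM in COTC022, with a median of 2.88. CD8A ranged from 0 to 26.9 CPM in COTC021, with a median of 0.401, and from 0 to 169.6 CPM in COTC022, with a median of 0.244. COTC022 replicate 64 held 40.3% of the summed CPM of CD8A, 15.7% of that of CD4 and 14.4% of that of CD8B.

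The kinase LCK ranged from 0.365 to 115.1 CPM in COTC021, with a median of 3.66, and from 0.746 to 482.1 CPM in COTC022, with a median of 3.18. ZAP70 ranged from 0 to 50.6 CPM in COTC021, with a median of 0.754, and from 0 to 178.8 CPM in COTC022, with a median of 0.937. On a log2 scale the SD over all dogs ran from 1.40 for LCK and 1.48 for CD8B to 2.05 for CD3G (n = 186). Transcript lengths were not at hand, so levels are not compared between genes.

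**Figure D1:**
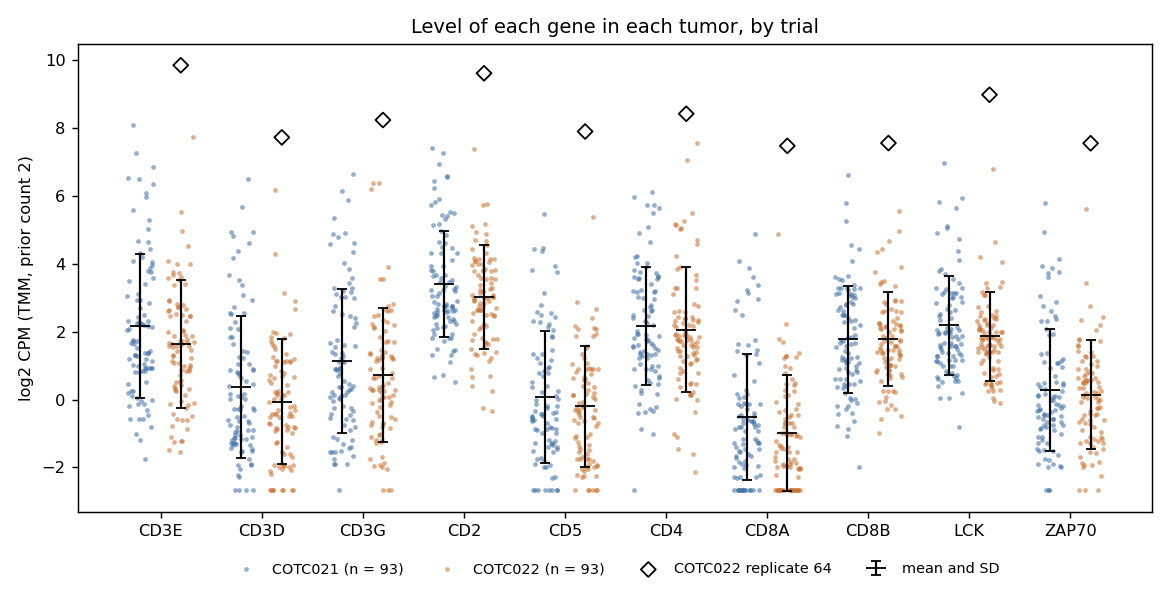
Level of each gene in each tumor as TMM-normalized log2 CPM (y axis), for COTC021 (blue, n = 93) and COTC022 (orange, n = 93), with the mean and SD over dogs as bars and COTC022 replicate 64 as a diamond. The trials overlap for each gene, and the diamond lies above all other tumors; points lined up at the bottom are tumors with 0 counts.

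A gene was taken as detected at 10 counts or more. The 10 genes were detected together in 42 of 186 dogs, and no dog lacked all of them. CD2 was detected in 184 dogs, LCK in 179, CD4 in 166, CD8B in 161 and CD3E in 157. The others were detected in fewer, with CD3G in 121 dogs, ZAP70 in 99, CD3D in 88, CD5 in 80 and CD8A in 50. CD8A had 0 counts in 35 dogs, CD5 in 14, CD3D in 12, ZAP70 in 6, CD3G in 4 and CD4 in 1. A count of 0 allows up to 3 counts, which is 0.109 CPM in the deepest library and 0.455 CPM in the shallowest (counting error only). Longer transcripts gather more reads, so these numbers do not order the genes by abundance.

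The alpha and beta chains of CD8 were detected together in 50 dogs, which are all the dogs with CD8A detected. CD8A had a median of 4 counts, so low counts limit this number. CD8B was detected in 161 dogs, and CD8A was below 10 counts in 111 of these and at 0 counts in 25. No dog had CD8A without CD8B. CD8A was detected in no dog with CD3E below 10 counts, whereas 21 of these 29 dogs had CD8B and 16 had CD4 at 10 counts or more.

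No difference in detection between the trials passed the test. CD8B was detected in 82.8% of COTC021 and 90.3% of COTC022 dogs, the largest difference of the 10 genes, with p = 0.196 (two-sided Fisher's exact test, n = 93 and 93) and an adjusted p of 1 over the 10 genes. The others differed by 4.30 percentage points or less, also with an adjusted p of 1. Deeper libraries crossed 10 counts more often. ZAP70 was detected in 66.0% of the 50 deeper libraries and 48.5% of the other 136, and CD3E in 94.0% and 80.9%, with adjusted p = 0.154 for both, and 0 of 10 genes passed the Fisher's exact test. With a limit of 1.52 CPM, which 10 counts give in the shallowest library, ZAP70 was detected in 26.0% and 29.4% and CD3E in 62.0% and 73.5%, so that the direction turned for both genes.

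**Figure D2:**
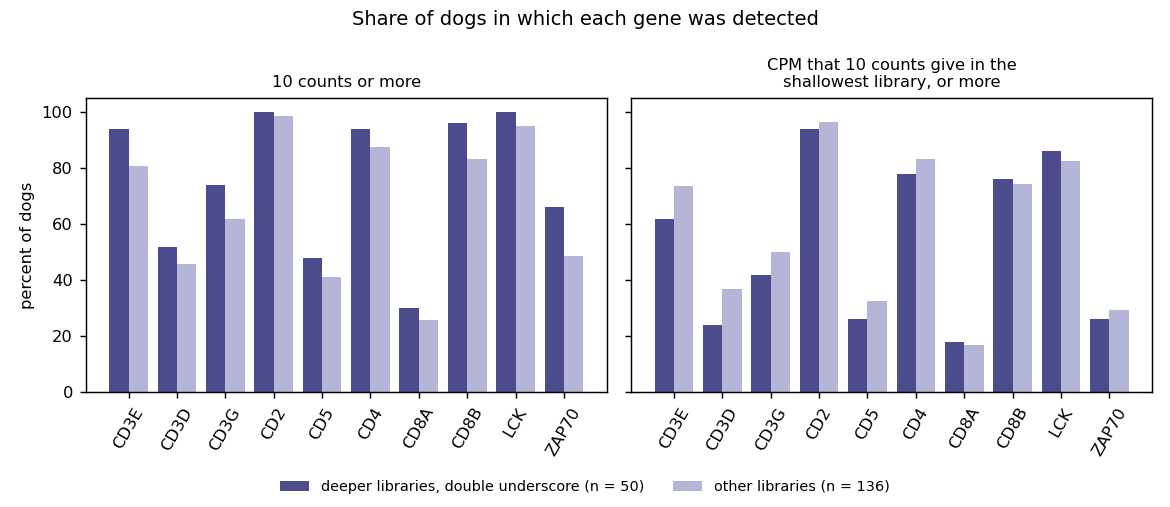
Percent of dogs (y axis) in which each gene was detected, in the 50 deeper libraries (dark) and the other 136 (light), at 10 counts or more (left) and at 1.52 CPM or more (right). The deeper libraries are higher for all 10 genes on the left and for 3 of them on the right, CD8A, CD8B and LCK.

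No difference between the trials passed the test for any of the genes. Low counts kept CD3D, CD5, CD8A and ZAP70 out of the main fit, which tested the 6 genes CD3E, CD3G, CD2, CD4, CD8B and LCK among 13422. CD3E was lower in COTC022 than in COTC021 by a log2 change of -0.41 ± 0.31 (SE), with adjusted p = 0.706 in limma-voom and a 95% interval from -1.02 to 0.187. CD8B, at 0.09 ± 0.22 and adjusted p = 0.933, had the only positive value. At an unadjusted p under 0.05 the count in this fit was also 0 of 6, beside 1332 of 13422 genes. With edgeR's quasi-likelihood test 0 of 6 were called as well, and DESeq2 gave no p, adjusted or not, for these 6. Over all genes tested, 0.0149% were called. Without the low-count filter, 0 of the 10 genes and 0.00666% of all genes were called, and CD8A was at -0.63 ± 0.34 (adjusted p = 0.523).

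The trial values differed in sign between the groups of libraries. Among the other 136 libraries, CD3E was at -1.03 ± 0.36 (adjusted p = 0.169), LCK at -0.71 ± 0.24 (adjusted p = 0.151) and CD2 at -0.69 ± 0.26 (adjusted p = 0.208). Among the 50 deeper libraries these genes were at 0.88 ± 0.72, 0.60 ± 0.49 and 0.42 ± 0.50. The difference of these differences was 1.91 ± 0.72 for CD3E and 1.3 ± 0.47 for LCK, and it did not pass the test across all genes (limma adjusted p = 0.389 and 0.370). An unadjusted limma p was under 0.05 for 4 of the 6 genes in the other 136 libraries, beside 1909 of 13422 genes. In the 50 deeper libraries this held for 1 of the 6, beside 831 of 13422. Without COTC022 replicate 64, CD3E was at -0.52 ± 0.30 (adjusted p = 0.556) in the main fit and at -1.14 (adjusted p = 0.0517) in edgeR's quasi-likelihood test, against 0.11 (adjusted p = 0.938) with that tumor. In quasi-likelihood without that tumor, 3 of the 6 had an unadjusted p under 0.05, beside 1897 of 13422 genes.

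No difference between the deeper libraries and the others passed the test in limma-voom either. With the trial as a covariate, CD3E was at -0.38 ± 0.33 (adjusted p = 0.570) in the deeper libraries, CD2 at -0.13 ± 0.24 (adjusted p = 0.832) and CD4 at 0.01 ± 0.29 (adjusted p = 0.993). Of all genes, 4.27% were called, and 0 of the 6 had an unadjusted p under 0.05. DESeq2 gave no p, adjusted or not, for 5 of the 6, and for CD4, the only one with a value, p was 0.0375 (adjusted p = 0.213). edgeR's quasi-likelihood test called 3 of the 6 as higher in the deeper libraries, CD3E (2.10), LCK (1.66) and CD2 (1.05), with adjusted p of 0.0041, 0.00124 and 0.0466. Over all genes, this test called 692 of 13422 in either direction. Without COTC022 replicate 64, which is 1 of the 50, it called 0 of the 6 and 622 of all genes, and CD3E was at 0.53 (adjusted p = 0.531).

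Most of the genes rose and fell together over dogs. Spearman's rho was positive for all 45 pairs, from 0.330 for CD4 with CD8B to 0.912 for CD3E with CD5. Each pair had an adjusted p of 1e-05, the smallest that 100000 permutations can give. Pearson's r ran from 0.362 to 0.937. The 28 pairs without CD4 and CD8B had rho from 0.648 to 0.912. CD3E had rho of 0.900 with CD3D, 0.830 with ZAP70, 0.828 with CD2, 0.786 with LCK, 0.784 with CD8A and 0.771 with CD3G. All 45 pairs passed the test within each trial, within each group of libraries and without COTC022 replicate 64. Without that tumor rho was 0.910 for CD3E with CD5, and without the 2 dogs farthest from the median of CD3E, r was 0.925 against 0.936.

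CD4 and CD8B stood apart from the other 8 genes in these values. CD4 had rho from 0.437 (CD3G) to 0.616 (CD2) with them, and CD8B from 0.339 (CD3D) to 0.461 (CD8A). Without COTC022 replicate 64, CD8B with CD3E went from 0.398 to 0.388 and CD8A with CD8B from 0.461 to 0.452. Differences between these correlations were not tested as such.

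The genes were also set against levels of 8 gene lists. Each gene was scaled to its SD over dogs and the scaled values were averaged, so the depth of a library enters both sides. These correlations were tested for the 10 genes only. The share of all genes that would pass is therefore not known, and the counts that passed do not set the 10 genes apart. All 10 genes rose with the macrophage level (rho from 0.359 for CD3G to 0.721 for CD2) and with the NK cell level (0.432 for CD8B to 0.766 for CD3E). The dendritic cell level gave rho from 0.398 (CD8B) to 0.750 (CD3E) and the B cell level from 0.401 (CD8B) to 0.624 (CD3E). All B cell and NK cell markers lay below the low-count filter. The neutrophil level gave rho of 0.690 (r = 0.710) for CD4 and from 0.227 (CD3G) to 0.333 (CD2) for the other 9 genes, and all of these relations passed the test. Within the trials, the rho of CD4 with the neutrophil level was 0.697 and 0.672, and within the deeper and the other libraries 0.738 and 0.662. Without the 2 dogs farthest from the median of that level, its r was 0.685.

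The osteoblast level went the other way. Its rho ran from -0.390 for CD4 to -0.137 for CD3G, with adjusted p of 1.51e-05 and 0.0680, and passed the test for 9 of 10 genes. The share over all genes was not computed for this level or for the endothelial level. CD3E, at -0.286 in all dogs, was at -0.486 in the deeper libraries and at -0.197 in the others. For CD8B, r was -0.155 in all dogs and -0.0678 without the 2 dogs farthest from the median, so that r rests on those dogs. Its rho, at -0.153 in all dogs (adjusted p = 0.0408), was -0.139 without COTC022 replicate 64, -0.210 in COTC021 and -0.0879 in COTC022. The endothelial level gave rho from 0.0244 (CD8B) to 0.205 (CD4), and 4 of 10 genes passed the test. In the deeper libraries this rho ran from 0.145 (CD8B) to 0.463 (CD8A), and in the others from -0.127 (CD3G) to 0.142 (CD2). The difference between the groups of libraries was not tested.

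**Figure D3:**
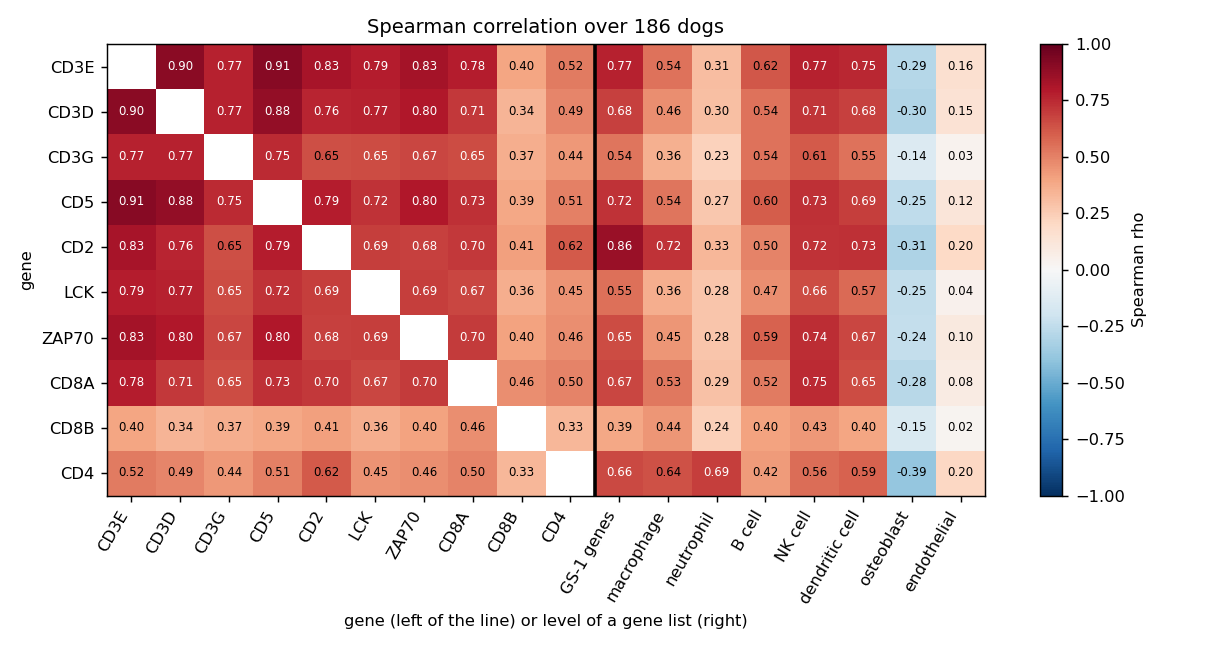
Spearman's rho over 186 dogs between the genes (left of the line) and between each gene and the level of a gene list (right), from -1 (blue) to 1 (red). CD8B and CD4 form the paler rows and columns among the genes, and the neutrophil column is darkest for CD4 at 0.690.

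The coreceptors and kinases were set against the CD3 level and the macrophage marker level in 1 fit, with the trial and the group of libraries. Both levels are of marker RNA and do not count cells. The CD3 level is the mean z-score of CD3E and CD3G, so the CD3 chains are no outcome here. CD3G and CD3E parted in COTC022 replicates 85 and 11, where CD3G was at 6.37 and 6.21 log2 CPM but CD3E at 0.28 and 0.42 and CD3D at -2.18 and -0.42. The CD3 level of both, at 0.97 SD, thus came from CD3G. They were singled out after their values were seen, and without them LCK was at 1.44, CD2 at 1.12, CD8B at 0.70 and CD4 at 0.60 for each SD of the CD3 level, all called. LCK rose by a log2 change of 1.37 ± 0.06 (SE) for each SD of the CD3 level, CD2 by 1.08 ± 0.05, CD8B by 0.66 ± 0.10 and CD4 by 0.59 ± 0.10, with adjusted p of 3.51e-07 or lower (limma). In edgeR's quasi-likelihood test CD8B was at 0.41 (adjusted p = 0.00799). That is 4 of 4 genes tested, while 9.16% of all genes were called as higher. CD5, CD8A and ZAP70 were fitted without the low-count filter, where 5.78% of all genes were called as higher. They rose by 1.78 ± 0.07, 1.77 ± 0.10 and 1.68 ± 0.07.

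With the macrophage marker level, and the CD3 level held fixed, CD4 rose by 1.12 ± 0.12 for each SD, CD2 by 0.63 ± 0.06 and CD8B by 0.47 ± 0.11. LCK was at 0.11 ± 0.07 and did not pass the test (adjusted p = 0.174). This is 3 of 4 genes, against 19.7% of all genes called as higher. Without the low-count filter, CD5 rose by 0.27 ± 0.09 (adjusted p = 0.0101), whereas CD8A was at 0.17 ± 0.11 (adjusted p = 0.296) and ZAP70 at 0.19 ± 0.08 (adjusted p = 0.0946), against 11.1% of all genes. The call of CD8B was lost in COTC022 alone (0.35, adjusted p = 0.0743) and in the deeper libraries alone (0.43, adjusted p = 0.234).

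Setting the terms against each other within a gene, the macrophage term of CD4 was larger than its CD3 term by 0.52 ± 0.19 (adjusted p = 0.0302), and that of CD2 was smaller by a difference of -0.44 ± 0.10 (adjusted p = 0.000111). For LCK the difference was -1.26 ± 0.11 (adjusted p = 4.2e-21), and for CD8B, at -0.19 ± 0.18, it did not pass (adjusted p = 0.479). The order for CD4 depended on the markers. With CSF1R alone in place of the 5 macrophage markers, its CD3 term was 0.99 and its macrophage term 0.50.

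Neutrophil markers separated CD4 from the rest. With the neutrophil level added to the fit, CD4 rose by 0.95 ± 0.08 for each SD of it (adjusted p = 9.44e-22), and its macrophage term went from 1.12 to 0.69 ± 0.10. CD2 (-0.04 ± 0.05), CD8B (0.03 ± 0.11) and LCK (-0.03 ± 0.07) had neutrophil terms near 0 that did not pass the test, with adjusted p from 0.737 to 0.917. Thus 1 of 4 genes was called, against 4.28% of all genes. In this fit 8.82% of all genes were called as higher with the CD3 level, among them all 4, and 19.0% with the macrophage level, among them CD2, CD4 and CD8B. Without the low-count filter, where 3.29% of all genes were called, CD8A was at 0.16 ± 0.12 (adjusted p = 0.393), CD5 at -0.12 ± 0.09 (adjusted p = 0.390) and ZAP70 at 0.02 ± 0.08 (adjusted p = 0.888). The neutrophil markers were not highest in COTC022 replicate 64, where S100A8 was at 4.75 CPM (rank 50) and S100A12 at 3.80 CPM (rank 58).

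**Figure D4:**
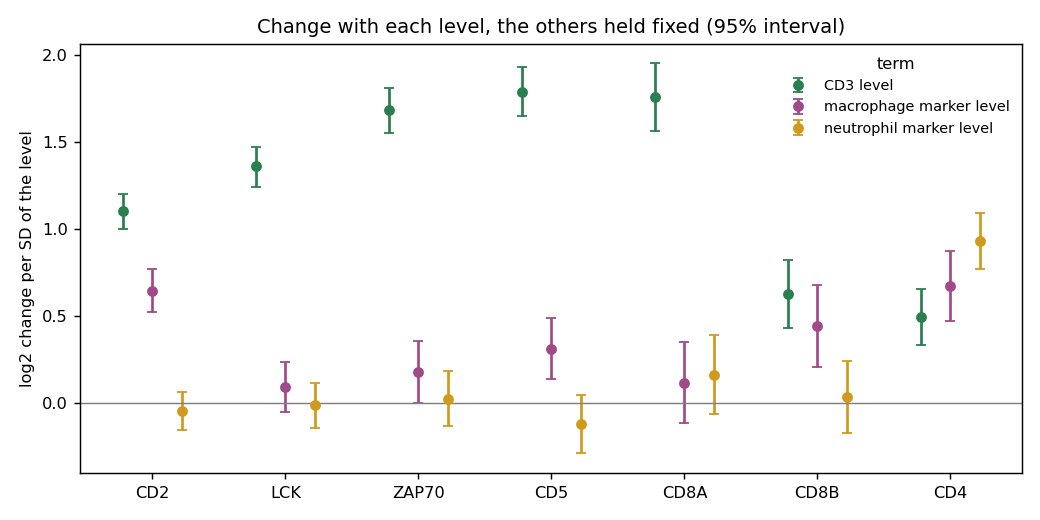
Log2 change of each gene (y axis) per SD of the CD3 level (green), the macrophage marker level (purple) and the neutrophil marker level (yellow), with the others held fixed, without the low-count filter; bars are 95% intervals. CD4 alone has a neutrophil term clear of 0, at 0.93, and CD8B and CD4 have the lowest CD3 terms, at 0.62 and 0.49.

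GS-1 is an immune gene signature that the study examined in these tumors. Its level was taken over the 27 signature genes left after low genes were removed, and none of the 10 genes is among these 27. The level was used as a continuous measure. All 6 genes tested rose with it, CD3E by 1.90 ± 0.09 for each SD, CD3G by 1.69 ± 0.11, CD2 by 1.47 ± 0.05, CD4 by 1.42 ± 0.09, LCK by 1.28 ± 0.07 and CD8B by 0.84 ± 0.09. Their adjusted p was 4.4e-15 or lower in limma, and 22.8% of all genes were called as higher. CD3G was at 1.01 in edgeR's quasi-likelihood test and also called. Without the filter, CD3D (1.85 ± 0.10), CD5 (1.73 ± 0.09), ZAP70 (1.61 ± 0.09) and CD8A (1.5 ± 0.09) rose as well, against 15.1% of all genes. CD8B had the smallest value of the 6 in the first fit and of the 10 without the filter. CD2 had the closest relation, with rho of 0.865 over the 186 dogs (r = 0.884). Without COTC022 replicate 64 the values ran from 0.70 for CD8B to 1.84 for CD3E.

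None of these slopes was shown to differ by trial or by group of libraries. Together with the trial differences above, 34 such tests were made on the genes, of which 0 passed across all genes and 6 had an unadjusted p under 0.05.

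**Figure D5:**
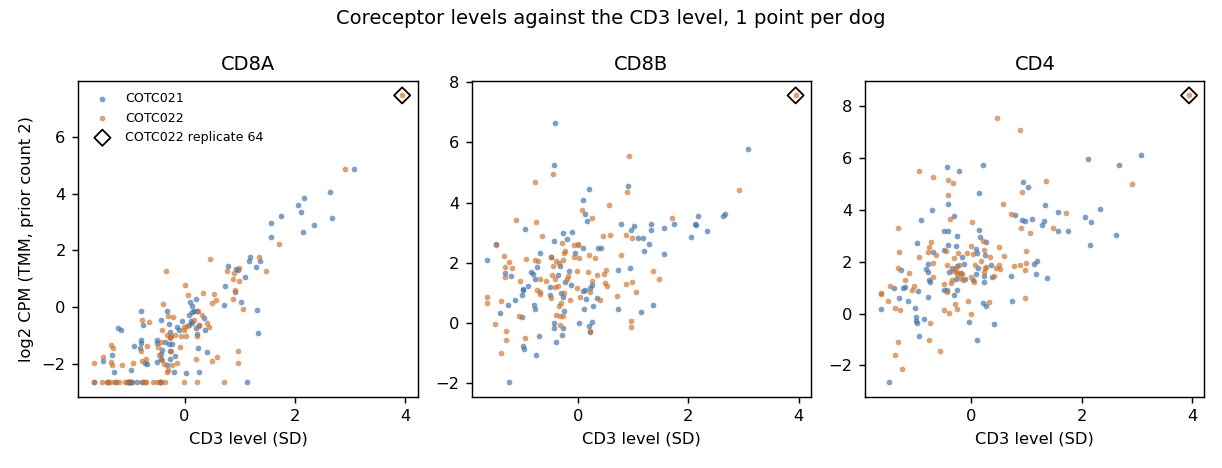
Log2 CPM of CD8A, CD8B and CD4 (y axes) against the CD3 level in SD (x axes), 1 point per dog, for COTC021 (blue) and COTC022 (orange), with COTC022 replicate 64 as a diamond. CD8A climbs steeply with the CD3 level, while CD8B and CD4 scatter widely. With the CD3 level that is plotted, rho was 0.381 for CD8B and 0.492 for CD4. With CD3E alone, which is not plotted, it was 0.784 for CD8A, 0.398 for CD8B and 0.517 for CD4.

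The balance of the coreceptors was taken as the log2 ratio of counts in dogs with at least 10 counts of both genes. For CD8A over CD4 it ranged from -6.15 to 1.06 over 49 dogs, with a median of -1.75, and for CD8A over CD8B from -5.36 to 1.05 over 50 dogs, with a median of -1.04. For CD8B over CD4 it ranged from -5.93 to 4.13 over 145 dogs, with a median of -0.337. The zero of these ratios has no meaning without transcript lengths, so only differences between dogs are compared. COTC022 replicate 64 lay inside the range of each, at -0.946, -0.0831 and -0.863.

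No difference of a ratio between the trials passed the test. CD8A over CD4 averaged -1.48 ± 1.62 (SD, n = 27) in COTC021 and -2.33 ± 1.58 (SD, n = 22) in COTC022, with adjusted p = 0.173 over 3 ratios (two-sided permutation test). CD8A over CD8B averaged -1.03 ± 1.48 (SD, n = 27) and -1.74 ± 1.64 (SD, n = 23), also with adjusted p = 0.173, and CD8B over CD4 averaged -0.367 ± 1.42 (SD, n = 67) and -0.343 ± 1.58 (SD, n = 78), with adjusted p = 0.923. Each difference was smaller than the SD between dogs.

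CD8A over CD8B rose with the CD3 level, with rho = 0.588 (adjusted p = 6e-05) and r = 0.534 (adjusted p = 0.00018) over 50 dogs. It did so in COTC021 (rho = 0.561), in COTC022 (0.512), in the deeper libraries (0.814, n = 15), in the others (0.499) and without COTC022 replicate 64 (0.577). Without the 2 dogs farthest from the median, r was 0.561. CD8A over CD4 also rose, with rho = 0.334 (adjusted p = 0.0276) and r = 0.326 (adjusted p = 0.0332) over 49 dogs, and r was 0.328 without the 2 farthest dogs. Within the trials this relation did not pass the permutation test (0.281 in COTC021 and 0.191 in COTC022). CD8B over CD4 went down slightly, with rho = -0.184 (adjusted p = 0.0276) over 145 dogs, while r, at -0.153, did not pass (adjusted p = 0.0673) and was -0.157 without the 2 farthest dogs. Within the trials its rho was -0.0715 and -0.245. A ratio is known only where both genes reach 10 counts, and dogs in which CD8A is low are missing from the first 2 relations.

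Among genes with a symbol other than a LOC name, those whose levels were most like the CD3 level, by Spearman's rho over 186 dogs, were CLEC2D (0.849), CXCR6 (0.806), IL2RB (0.8004), CD6 (0.797), IL2RG (0.7745), GZMK (0.7697), TBC1D10C (0.766), GIMAP7 (0.764), CCDC88B (0.7305) and CCL5 (0.7298). CXCR6 is a chemokine receptor of effector T cells, IL2RB and IL2RG are chains of receptors for interleukins, CD6 is a surface receptor of T cells related to CD5, GZMK is a granzyme and CCL5 a chemokine. CD2 (0.762) and LCK (0.736) ranked 13 and 14 among all 13420 genes compared, whereas CD4 (0.492) ranked 248 and CD8B (0.381) ranked 460. Outside this rule and named after its value was seen, LOC480788, annotated as a constant region (C_region) on chromosome 16 (chr16:6540311-6547906), ranked 1 (0.878), and LOC607937 (0.807), LOC475935 (0.787) and LOC106557461 (0.787) ranked 3, 7 and 8. Also chosen after their values were seen were the genes nearest to each coreceptor, among those that passed the low-count filter and have no LOC name. Those nearest to CD4 were CSF3R (0.769), the receptor of the neutrophil growth factor, and AQP9 (0.766). CD8A was nearest to CD3E (0.784) and GZMK (0.784), and CD8B to SLAMF7 (0.643) and NR1H3 (0.612).

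The other genes of the pathway followed the CD3 level in part, with the macrophage level held fixed as above. Of 17 genes of T-cell receptor signaling that passed the filter, 8 rose, 2 fell and 7 did not pass the test, with a median log2 change of 0.168 per SD against 0.00468 over all genes. Of all genes, 9.16% rose and 6.73% fell in this fit. CD247, the zeta chain of the receptor, rose by 1.03 ± 0.09. PTPN22 (-0.424 ± 0.13) and NFATC1 (-0.167 ± 0.05) were the 2 that fell. Of 18 genes of costimulation and T-cell identity only 5 passed the filter. Of these 5, 3 rose, CD6 (1.64 ± 0.06), CCR7 (0.846 ± 0.07) and IL7R (0.298 ± 0.09). The granzymes GZMK (1.95 ± 0.09) and GZMB (1.61 ± 0.09) both rose. Beside them, 4 of 4 dendritic cell markers rose, led by CCR7, which is in both lists, XCR1 (0.804 ± 0.09) and BATF3 (0.604 ± 0.09). Of 5 macrophage markers AIF1 rose (0.300 ± 0.04), CD68 (-0.418 ± 0.11) and CSF1R (-0.178 ± 0.05) fell, and CD163 and MSR1 did not pass. The macrophage level held fixed in this fit is the mean of these 5, so their directions are relative to that mean. Per SD of the GS-1 level, in the fit without the macrophage level, all 5 rose, against 22.8% of all genes. None of the 4 neutrophil and 5 endothelial markers was called, and of 5 osteoblast markers ALPL fell (-0.688 ± 0.16). All 5 B cell and all 5 NK cell markers rose in the fit without the low-count filter, where 5.78% of all genes rose. The NK cell markers had medians of 0.106 CPM or less, so counting error weighs on them. In that fit 14 of 23 genes of T-cell receptor signaling rose and 2 fell. Of the genes of costimulation and T-cell identity 15 of 18 rose, and of those of cytotoxic granules 7 of 7. Genes named here as falling were chosen after their values were seen. These marker lists moved beside the CD3 level, and their part in the values of the 10 genes was not tested beyond the fits above.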

How the data were processed

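RNA of 186 tumors was sequenced from TruSeq Stranded mRNA libraries (NovaSeq, paired reads). Per the labels and the study's methods, the authors trimmed reads with cutadapt, aligned them with STAR 2.7.0f to GSD_1.0 and deposited expected counts per gene from RSEM 1.3.1, not normalized. RSEM divides reads that match several genes, and 3.07% of values were not whole, so counts were rounded. Totals ranged from 6587634 to 27420867, which sets the precision of low genes. Of 198 columns, 12 matched no sample and were not used.

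The 10 genes and all lists were chosen with earlier results of these data known. Genes were kept with filterByExpr of edgeR, set to a minimum of 10 counts, a proportion of 0.5 and a large-group size of 5 (13422 genes), scaled with TMM and fitted with voom in limma 3.58.1 (edgeR 4.0.16, R 4.3.3), with Benjamini-Hochberg adjustment over all genes and a threshold of 0.05. Fits were tested on simulated data. Log2 CPM used a prior count of 2, rounded so that libraries at 0 counts tied in ranks, and ratios a pseudocount of 1. Correlations and ratios were tested with 100000 two-sided permutations (Python 3.11.15, numpy 2.4.6, scipy 1.17.1, pandas 2.3.3; figures matplotlib 3.10.9), adjusted over 45 pairs, 80 pairs of gene and level, or 3 ratios. Fisher's exact tests compared detection. Alternatives were quasi-likelihood (edgeR), DESeq2 1.42.0, RLE size factors, no filter, other markers, other minimums and subsets of dogs; leaving out COTC022 replicate 64 or replicates 11 and 85, a block on the title number, the contrast of terms, and tests of differences by trial and libraries of the trial value were added after seeing the data. Named genes are the 10, the 10 most like the CD3 level without LOC names, and the 3 largest of each list, of which some are not reported here. The macrophage list was CD163, MSR1, CD68, AIF1 and CSF1R. Replicates are dogs, 1 library each, numbered in accession order. The labels give the trial only, so the study's clusters, treatment arms and survival are not used here. Positions come from the RefSeq annotation of GSD_1.0, and sequences and transcript lengths were not used here.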

Additional observations from a re-analysis of the deposited data

How the results depend on the processing

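No paired analysis was possible because the trials hold different dogs, and the labels give no number that joins a dog of one trial to a dog of the other. A 2-digit number after the trial in the titles, whose meaning is not given, recurs in many dogs (16 of 18 numbers occur in both trials). With it as a block, 0 of 6 genes were called between trials or libraries, and the sign changed for CD4 between trials (0.041) and for CD4 (-0.0821), CD8B (0.0822) and LCK (0.0811) between libraries. Of 114 alternative values for counts of calls and ratios, 106 kept their direction and call, and of 680 for single genes and pairs 626 did. Genes to which DESeq2 gave no adjusted p were counted there as not called, so those values are no test. Where direction changed (52 values), the gene was never called in the main fit. The trial difference changed sign with edgeR's quasi-likelihood for CD3E (0.112), CD3G (0.166), CD2 (0.0024), CD4 (0.552) and LCK (0.288), with DESeq2 for CD3E (0.0792), CD3G (0.139), CD4 (0.539) and LCK (0.261), in the 50 deeper libraries for CD3E (0.875), CD3G (0.501), CD2 (0.423), CD4 (0.243) and LCK (0.596), and in the other 136 for CD8B (-0.348). Without COTC022 replicate 64 in quasi-likelihood it did so for CD4 (0.101) and CD8B (-0.384). The library difference changed sign with quasi-likelihood for CD3E (2.1), CD3G (0.766), CD2 (1.05), CD8B (0.564) and LCK (1.66), of which 3 were called, with DESeq2 for CD3E (2.1), CD3G (0.761), CD2 (1.04), CD8B (0.555) and LCK (1.66), in COTC022 for CD3E (0.544), CD3G (0.405), CD2 (0.392), CD8B (0.512) and LCK (0.579), in COTC021 for CD4 (-0.322), without the filter for CD8B (0.0227) and LCK (0.0366), and without replicate 64 for CD4 (-0.0928) or, in quasi-likelihood, CD3E (0.533), CD2 (0.00462) and LCK (0.365). The macrophage term of LCK changed sign with quasi-likelihood (-0.0484) and with CD3E alone (-0.0821). Detection between the trials, in percentage points, changed sign at the limit of 1.52 CPM for CD3G (-7.53) and LCK (-3.23), at 5 counts for ZAP70 (1.08), in the deeper libraries for CD3D (11.8), CD4 (-9.38) and CD8A (20.8), and in the others for CD3G (-4.98). CD8A over CD4 with the CD3 level no longer passed at a minimum of 30 counts (0.413), in COTC021 (0.281), in COTC022 (0.191) and in the deeper libraries (0.143). CD8B over CD4 no longer passed at 30 counts (-0.207), in COTC021 (-0.0715) and in the deeper libraries (-0.166). Over all genes, the trial calls were 2 in limma, 129 in quasi-likelihood and 71 in DESeq2 and 5 with the title number as a block, and the library calls 573 with the filter and 13267 without. The cause was not tested. CD8A reached 10 counts in 50 dogs, CD5 in 80 and CD3D in 88, so counting error weighs on their values.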
